A study of Mus musculus with 2 samples.

Results

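The ABC genes were taken as all gene probes on the array whose gene name is Abc, a letter from a to g and a number. The rule gave 74 probes for 50 genes, out of 39429 probes for 30163 genes on the array. All 50 names were current symbols in the RefSeq gene table. Not all of them are transporters: Abce1 and Abcf1, Abcf2 and Abcf3 carry the ATP-binding domains without a membrane domain, and they are described last. Conversely Cftr, Tap1 and Tap2 are ABC proteins that the naming rule leaves out.

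ABC transporters use ATP hydrolysis to move bile acids, lipids, sterols, drug conjugates and peptides across membranes. In hepatocytes several of them sit in the bile canaliculus and make bile, others return conjugates to blood across the sinusoidal membrane, and others load cholesterol onto HDL. Further members serve peroxisomes, lysosomes and mitochondria. Drp1, encoded by Dnm1l, is the dynamin-related GTPase that divides mitochondria and peroxisomes.

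The study set a Drp1 knockout liver beside a wild type liver, with 1 array for each. Both were livers of male C57BL/6J mice on a high-fat diet, begun at 4 weeks of age and given for 24 weeks, in which lard supplied 24% fat and 45% of the calories. The series title places the disruption in the liver; which promoter drives the deletion, which exons it removes, and whether the RNA came from 1 mouse or several is not given in the sources used here. The design text describes fasted and refed sampling, but the labels do not say which of these the arrays hold. Each array measured Cy3-labelled RNA, and levels below are processed fluorescence intensities divided by the 75th percentile of that array, so that 1 is the brightness that 25% of its probes exceed. A level serves to compare the arrays for 1 gene, since probes differ in brightness, and not to rank genes.

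With 1 array in each group there is no replicate check of any difference, and no test was made. The spread between repeated spots of a probe, over 241 probes, gave an SD of 0.14 for a log2 difference, which covers spot error only. Both arrays lay on 1 slide. The 75th percentile was 722 in the knockout and 461 in wild type, and 57.1% of probes in the knockout and 50.5% in wild type stood well above background. The Dnm1l probe had a level of 1.75 in the knockout and 2.03 in wild type (log2 difference -0.21), which does not check the labels because the deleted part is not known. Hepatocyte markers were well above background on both arrays for 8 of 8 genes, which matches the liver label.

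The probes of 5 genes carry the 2-fold differences described below. They are shown by the first 30 of each probe's 60 bases, with mm9 coordinates from the scanner files, all in lower case since no part is singled out. The Abca8b stretch lies at chr11:109795619-109795648 on the minus strand, the Abcc4 stretch at chr14:118882134-118882163 (minus) and the Abca5 stretch at chr11:110130993-110131022 (minus). The Abca3 stretch lies at chr17:24547066-24547095 (plus) and the Abcd2 stretch at chr15:90976595-90976624 (minus). Exon annotation of that build was not used here.
Abca8b: cacatccctttaggacacttatagccatag
Abcc4: gccagtaaatgatgtagattcgtcctttat
Abca5: cgtttcacatttgttacaatgccatcttac
Abca3: cagggctgagtagtgtcatctcttgaggat
Abcd2: caaggaaaatgaagtatagctccggctatc

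Promoter regions of 4 genes past 1.5-fold are shown: Abcg5 and Abcg8 for the interval that they share, and Abcc4 and Abca3 for matches to motifs of stress and sterol responses. They come from RefSeq on GRCm38.p6 and stop before the transcription start. Abcg5 and Abcg8, whose products pair to secrete sterols, start back to back on chromosome 17, at 84683011 and 84683121, with 109 bases between them. That whole interval, chr17:84683012-84683120 on the plus strand, has in capitals a match to the TATA box (TATAAA) that reads on the minus strand, towards Abcg5. The match begins at base 79 of the interval, counted from the Abcg5 end, and 31 bases before the Abcg8 start. The other regions are 250 bases each. Abcc4 has a pair of listed starts, at chr14:118706220-118706469 and chr14:118676932-118677181, both on the minus strand. Capitals mark an E-box (CACGTG) and a minus-strand match to the core of the antioxidant response element (TGACNNNGC) in the upstream one, and a plus-strand match to that core in the downstream one. In the Abca3 region, chr17:24351773-24352022 on the plus strand, capitals mark a sterol response element (TCACNCCAC).
Abcg5-Abcg8 interval: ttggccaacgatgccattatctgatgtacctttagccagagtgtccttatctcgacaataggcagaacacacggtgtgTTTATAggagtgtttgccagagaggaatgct
Abcc4 upstream start: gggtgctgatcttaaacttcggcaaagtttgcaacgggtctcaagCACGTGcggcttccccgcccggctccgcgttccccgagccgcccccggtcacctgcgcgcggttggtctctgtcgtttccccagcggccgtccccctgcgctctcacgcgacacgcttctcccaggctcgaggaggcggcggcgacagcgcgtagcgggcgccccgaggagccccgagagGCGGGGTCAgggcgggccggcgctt
Abcc4 downstream start: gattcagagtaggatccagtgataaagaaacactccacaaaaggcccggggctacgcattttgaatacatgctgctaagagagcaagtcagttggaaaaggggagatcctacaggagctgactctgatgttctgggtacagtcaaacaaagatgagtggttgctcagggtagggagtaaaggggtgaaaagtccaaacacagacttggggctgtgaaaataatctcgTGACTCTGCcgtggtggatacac
Abca3: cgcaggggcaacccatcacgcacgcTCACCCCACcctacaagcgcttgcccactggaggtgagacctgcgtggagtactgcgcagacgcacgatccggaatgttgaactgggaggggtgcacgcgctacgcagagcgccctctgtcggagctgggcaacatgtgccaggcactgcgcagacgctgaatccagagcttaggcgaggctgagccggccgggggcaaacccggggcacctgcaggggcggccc

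Windows of 250 bases before the start were searched on both strands, 45 of them for 38 of the ABC genes and 32851 over all genes. The antioxidant core was in 4 of the ABC windows, those of Abcc2, Abcc10 and both of Abcc4, and in 10.16% of all windows. The E-box was in 5 ABC windows (6.02% of all), the sterol response element in the Abca3 window only (1.05% of all) and the TATA box in 5 (12.37% of all). The C/EBP-ATF response element (TGATGNAA) was in 1 ABC window and 3.45% of all, and the cyclic AMP response element (TGACGTCA) in 2 and 1.55%. The receptor repeats of AGGTCA, direct with 4 bases between (DR4), direct with 1 (DR1) and inverted with 1 (IR1), were in 0 ABC windows, and in 0.02%, 0.03% and 0.02% of all, too rare for a count over 45 windows to be read. These are matches of letters, described only, and none was tested as a site.

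Of the 50 genes, 39 were measured on both arrays, against 15385 genes of the whole array. Among these 39, 5 exceeded their wild type level by 1.5-fold or more in the knockout, which is 12.8% beside 8.42% of all measured genes. A further 6 were at least 1.5-fold lower, 15.4% beside 13.4% of all measured genes. At 2-fold, 3 were higher (7.69% beside 2.91%) and 2 lower (5.13% beside 3.64%). The median log2 difference was -0.14 over the ABC genes and -0.11 over all measured genes, with quartiles of -0.43 and 0.23 for the ABC genes and -0.39 and 0.18 for all. Among genes measured on both arrays, the family's median and quartiles therefore lay near those of all genes. Differences of single members ranged from -1.36 to 1.26. With no filter on dim probes, the median was -0.20 over the 50 ABC genes beside -0.31 for all. Under a stricter filter on dim probes, which kept 31 ABC genes, the median was -0.34 beside -0.11 for all genes kept.

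The 5 higher genes were Abca8b, Abcc4, Abca5, Abcc5 and Abcb1a, 2 members of the A family and 3 efflux pumps. The 6 lower genes were Abcd2, Abca3, Abcg8, Abca2, Abcb10 and Abcg5, which include both subunits of the sterol pump. Under limma's normexp background correction 4 of the 11 stayed past 1.5-fold, namely Abca8b, Abcd2, Abca3 and Abcg8, and the other alternatives left at least 7. The higher genes Abcc4, Abcc5, Abcb1a and Abca5 are dim and were not measured at all under the stricter filter on dim probes.

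**Figure D1:**
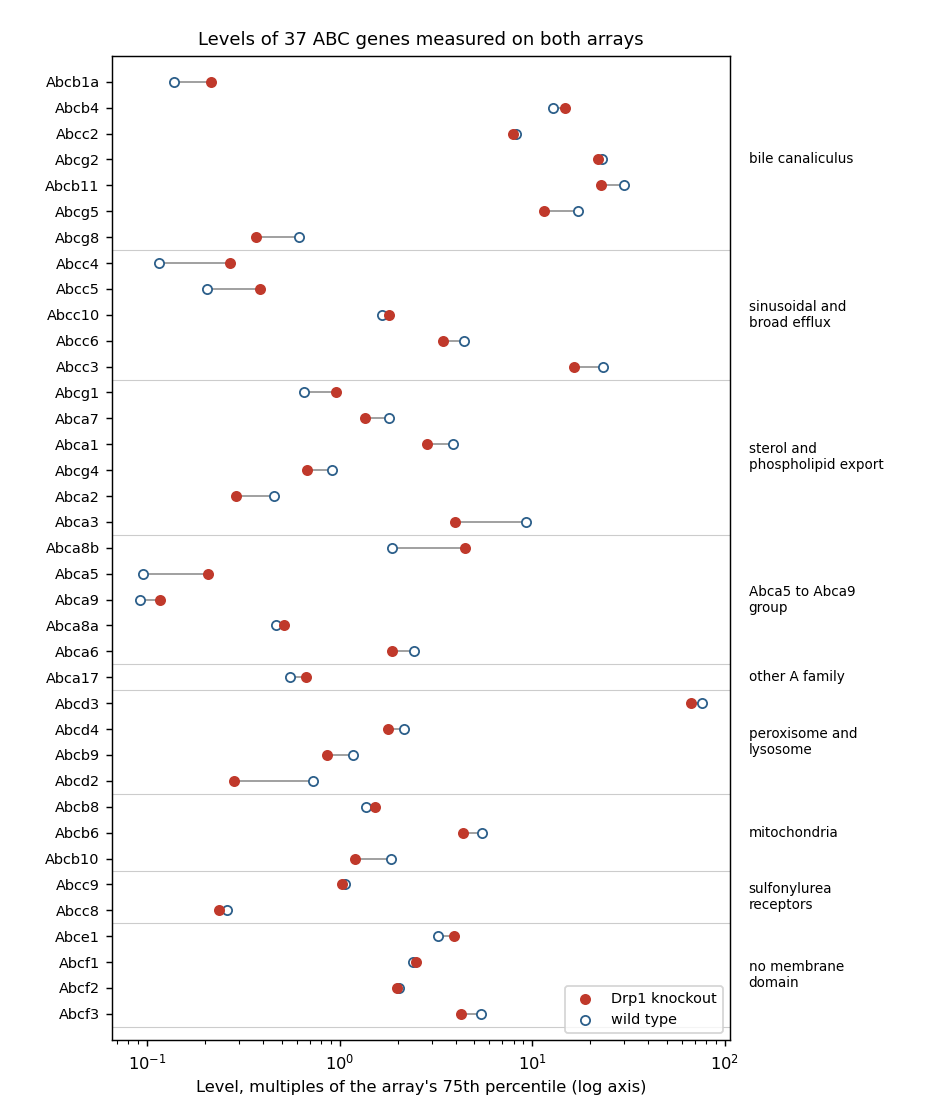
Levels of 37 ABC genes measured on both arrays, on a log axis of processed intensity over the array's 75th percentile, with 1 point for the Drp1 knockout array and 1 for the wild type array per gene. Most pairs lie close together, while Abca8b stands at 4.50 in the knockout and 1.88 in wild type and Abca3 at 3.97 in the knockout and 9.33 in wild type.

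Among the 8 genes with a role at the bile canaliculus, 7 were measured on both arrays. Abcg8 had a level of 0.37 in the knockout and 0.61 in wild type, 1.66-fold lower. Its partner Abcg5 had 11.49 in the knockout and 17.26 in wild type, 1.5-fold lower (log2 difference -0.59). Both subunits of the pump that exports cholesterol and plant sterols into bile were thus lower in the knockout, although Abcg5 came to -0.36 on the log2 scale, short of 1.5-fold, under quantile and loess normalization and in the authors' deposited values. The bile salt export pump Abcb11 had 22.69 in the knockout and 30.08 in wild type (log2 difference -0.41, inside 1.5-fold). Its difference was -0.16 under quantile normalization and in the deposited values, and -0.14 under loess.

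Abcb4, which flips phosphatidylcholine into bile, had 14.76 in the knockout and 12.88 in wild type, and its 2 probes differed by 0.08 and 0.32. These levels average a probe at 2.66 in the knockout and 2.52 in wild type with one at 81.96 and 65.83. The gene's difference was 0.20, and 0.40 under quantile normalization and in the deposited values and 0.41 under loess. Under loess the brighter probe came to 0.65, past 1.5-fold, and the other to 0.16. Abcc2, the exporter of bilirubin and glutathione conjugates, had 7.94 in the knockout and 8.20 in wild type. Abcg2, the breast cancer resistance protein, had 21.88 in the knockout and 22.98 in wild type. Differences of Abcc2 and Abcg2, at -0.05 and -0.07, were within the spot error, and their sign turned under quantile, loess and normexp processing and under centring on the median.

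Abcb1a, one of the P-glycoproteins that pump out lipophilic drugs, was the only canalicular member past 1.5-fold higher, with 0.22 in the knockout and 0.14 in wild type (1.57-fold). Its log2 difference was 0.65, and 0.19 under normexp. Abcb1b, the other P-glycoprotein gene, was well above background in the knockout only, at 0.08 in the knockout and 0.05 in wild type, at least 1.40-fold higher. For such a gene the fold is a lower bound, taken against the higher of the probe's own wild type level and the lowest wild type level well above background.

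Exporters of the C family that face the blood or act in many tissues held 2 of the higher genes. Abcc4, which sends bile acids, conjugates and cyclic nucleotides across the sinusoidal membrane, had 0.27 in the knockout and 0.11 in wild type (log2 difference 1.24, 2.36-fold higher). Abcc5, an exporter of cyclic nucleotides and other organic anions, had 0.39 in the knockout and 0.21 in wild type (0.92, 1.89-fold higher). The Abcc5 value rests on a probe with 10 spots on each array, with an SD on the log2 scale of 0.068 in the knockout and 0.08 in wild type. Its other 3 probes were not measured on both arrays, and with them kept in, the gene's difference was 0.27.

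Under normexp Abcc4 came to 0.55 and Abcc5 to 0.54, just short of 1.5-fold. Abcc1, the exporter of glutathione conjugates and leukotriene C4, was well above background in the knockout only, with 0.10 in the knockout and 0.05 in wild type, at least 1.70-fold higher. Abcc12 was also well above background in the knockout only, at least 1.16-fold higher by its brighter probe. All of these lie in the dim range, where the lowest level well above background was -4.76 in the knockout and -4.08 in wild type on the log2 scale.

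Abcc3, which exports glucuronides and bile acids to blood, had 16.47 in the knockout and 23.30 in wild type (-0.50). Abcc6, a hepatic transporter whose loss causes ectopic calcification, had 3.45 in the knockout and 4.43 in wild type. Abcc10 had 1.80 in the knockout and 1.66 in wild type. Abcc3 was thus on the lower side, inside 1.5-fold, and Abcc4 on the higher. Abcc3 came to -0.26 under quantile and -0.25 under loess normalization, and Abcc4 to 0.55 under normexp. The group of 5 measured genes had a median of 0.12.

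Abca3 led the genes for cellular sterol and phospholipid export. It loads surfactant lipids into lamellar bodies in lung, and had 3.97 in the knockout and 9.33 in wild type (-1.23, 2.35-fold lower). It stayed at least 2-fold lower under all 8 alternatives, between -1.23 and -1.07. Abca2, an endosomal lipid transporter best known from brain, had 0.29 in the knockout and 0.46 in wild type (1.57-fold lower), and its 2 probes gave -0.76 and -0.54.

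Abca1, which loads cholesterol and phospholipid onto apolipoprotein A-I to start HDL, had 2.85 in the knockout and 3.86 in wild type (-0.44). Abca7, its close relative, had 1.35 in the knockout and 1.80 in wild type (-0.41), and Abcg4 had 0.67 in the knockout and 0.92 in wild type (-0.44) by 1 probe. Another Abcg4 probe was well above background in wild type only, at least 2.34-fold lower in the knockout. The remaining Abcg4 probe, whose mm9 position overlaps that one, was well above background on neither array. Abcg1, the exporter of cholesterol to mature HDL that is abundant in macrophages, stood apart at 0.96 in the knockout and 0.65 in wild type (0.56, 1.48-fold higher), just inside the threshold. Of these 6 genes 5 lay below 0, with a median of -0.44, beside a median of -0.11 for all measured genes.

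The Abca5 to Abca9 genes are a tandem cluster of the A family on chromosome 11 whose substrates are less well known. Abca8b had 4.50 in the knockout and 1.88 in wild type (1.26, 2.40-fold higher), the highest difference of the family, and ranged from 1.23 to 1.37 over the alternatives. Abca5, found in lysosomes and late endosomes, had 0.207 in the knockout and 0.095 in wild type (1.12, 2.17-fold higher), and 0.36 under normexp. A second Abca5 probe was well above background in the knockout only, at least 1.13-fold higher.

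In the cluster's order on mm9, with Abca8b and Abca5 at its ends, the 3 genes between them had smaller differences. Abca8a had 0.52 in the knockout and 0.47 in wild type (0.15), and Abca9 had 0.12 in the knockout and 0.09 in wild type (0.34). Abca6 had 1.86 in the knockout and 2.43 in wild type (-0.38). The closest relatives by name and position thus did not share 1 difference: the probes of Abca8b and Abca8a lie 149.8 kb apart, and the genes' differences were 1.26 and 0.15.

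Other neighbours also parted. Abca17, of the A family, had 0.67 in the knockout and 0.55 in wild type (0.28), while Abca3, with its probe 63.8 kb away on chromosome 17, was lower. On chromosome 5 the row Abcb1a, Abcb1b and Abcb4 held 0.65, a bound of 1.40-fold higher and 0.20. Abcg5 and Abcg8, with the shared interval printed above, were the neighbours that lay on the same side past 1.5-fold. Cross-hybridisation between close copies such as Abcb1a and Abcb1b, or Abca8a and Abca8b, was not checked.

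Abcd2 had the lowest difference of the family, with 0.28 in the knockout and 0.73 in wild type (-1.36, 2.57-fold lower), and ranged from -1.38 to -1.11 over the alternatives. It imports very long chain fatty acids into peroxisomes.

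Abcd3, the abundant peroxisomal membrane protein that imports branched acyl-CoA and bile acid intermediates, had 66.89 in the knockout and 76.10 in wild type (-0.19). The lysosomal cobalamin exporter Abcd4 had 1.79 in the knockout and 2.15 in wild type, and the lysosomal peptide transporter Abcb9 had 0.86 in the knockout and 1.18 in wild type. Abcd2 and these 3 other genes of peroxisomes and lysosomes lay below 0, between -1.36 and -0.19, and 1 of them was past 1.5-fold. The median of all measured genes was also below 0, at -0.11. Abcd3 turned above 0 under quantile and loess normalization.

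Mitochondria have their own ABC proteins. Abcb10, an inner membrane transporter needed for haem synthesis, had 1.20 in the knockout and 1.85 in wild type (-0.62, 1.54-fold lower). Abcb6, which binds porphyrins, had 4.37 in the knockout and 5.51 in wild type (-0.34). Abcb8, another inner membrane transporter, averaged 0.16, with probes at 0.58 and -0.26. So the direction of Abcb8 depends on the probe, and of these 3 genes only Abcb10 was past 1.5-fold.

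The sulfonylurea receptors Abcc8 and Abcc9, regulatory subunits of potassium channels, had 0.24 in the knockout and 0.26 in wild type (-0.14) and 1.02 in the knockout and 1.06 in wild type (-0.05). Abce1, which splits ribosomes after termination, had 3.90 in the knockout and 3.24 in wild type (0.27). Abcf1 had 2.49 in the knockout and 2.41 in wild type, with probes at -0.17 and 0.27. Abcf2 had 1.98 in the knockout and 2.03 in wild type, and Abcf3 had 4.28 in the knockout and 5.40 in wild type. None of these 6 was past 1.5-fold.

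The 8 genes that stood well above background on neither array were Abca4, Abca12, Abca13, Abca14, Abca15, Abca16, Abcb5 and Abcg3. They include the retinal transporter Abca4 and the epidermal lipid transporter Abca12, and no difference is given for them. Of the 39 measured genes 33 rest on 1 probe. Of the 6 with several, 3 had probes of opposite sign, Abcb8 and Abcf1 among them. Under some alternative 10 of the 39 turned sign, all with a difference of at most 0.34 in size.

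**Figure D2:**
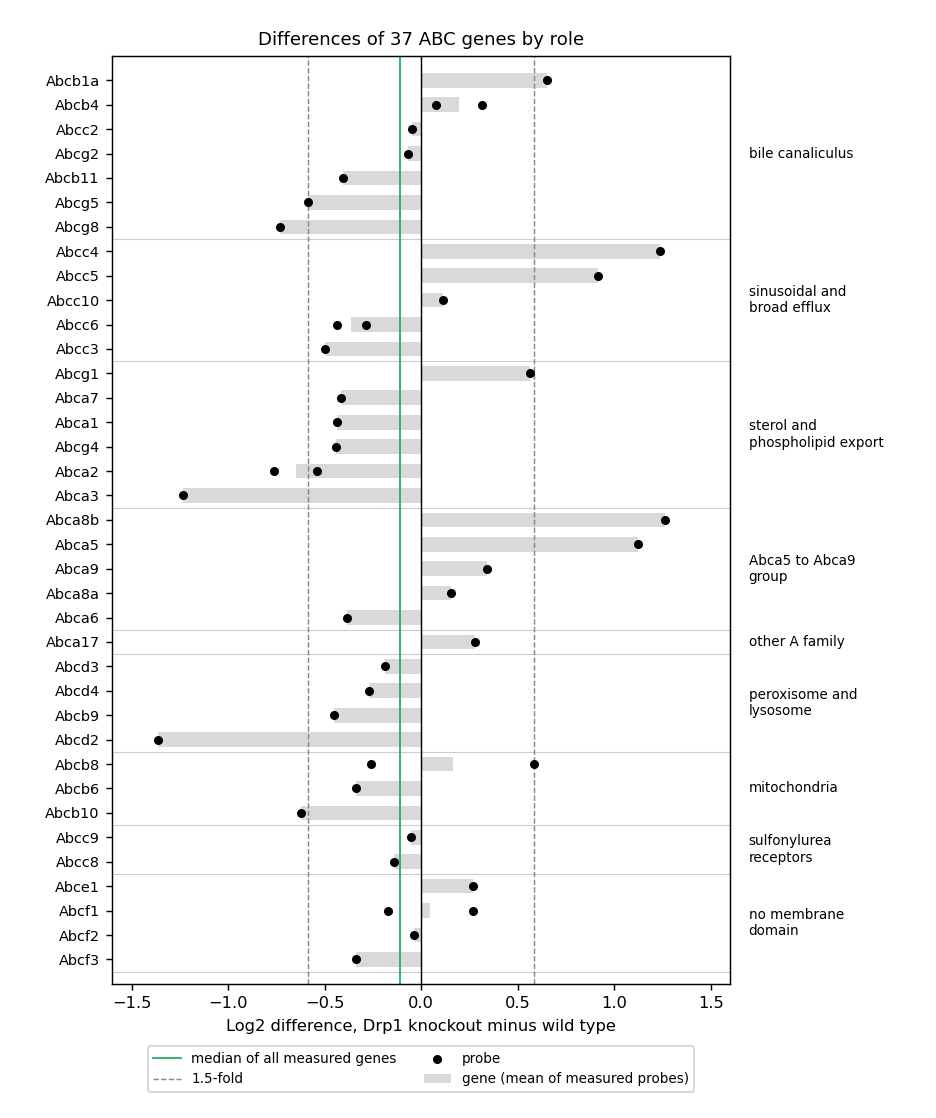
Log2 difference, Drp1 knockout minus wild type, of 37 ABC genes grouped by role, with a bar for each gene, a point for each probe, a green line at the median of all measured genes (-0.11) and dashed lines at 1.5-fold. Higher genes (Abca8b, Abcc4, Abca5, Abcc5, Abcb1a) fall in the A cluster, the C family and the canaliculus, and Abcd2 and Abca3 are lowest.

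**Figure D3:**
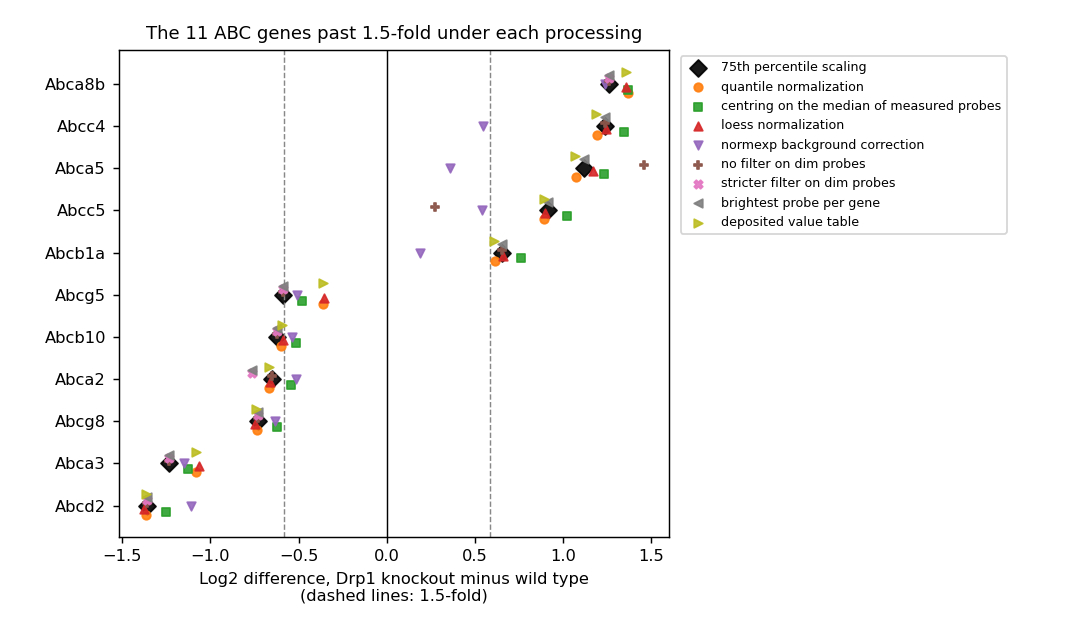
Log2 difference, Drp1 knockout minus wild type, of the 11 ABC genes past 1.5-fold under each processing, with 1 symbol per setting and dashed lines at 1.5-fold. No gene changes side of 0, and normexp brings 7 of the 11 inside 1.5-fold, the higher genes Abcc4, Abca5, Abcc5 and Abcb1a and the lower genes Abca2, Abcb10 and Abcg5.

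Genes that work beside the ABC proteins were counted in lists. Of 20 measured genes of bile acid and sterol handling 2 were at least 1.5-fold higher and 5 lower (3 under loess). Their median was -0.23, and -0.07 under loess. Nr0b2, the repressor induced by bile acids, was 1.62-fold higher and the uptake carrier Slco1a4 1.59-fold higher. Cyp7b1, an oxysterol hydroxylase of the alternative bile acid pathway, was 2.53-fold lower, and the uptake carriers Slco1a1 and Slco2b1 were 1.84-fold and 1.71-fold lower. Cyp7a1, the rate-limiting enzyme of the classic pathway, had 3.00 in the knockout and 3.37 in wild type.

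Partners of HDL assembly, 16 measured, had a median of -0.42, with 0 higher and 4 lower. Under loess the median was -0.17, with 0 lower. Among them Apom, an HDL apolipoprotein, was 1.75-fold lower. Peroxisomal enzymes and peroxins, 17 measured, had a median of -0.30, with 1 higher and 3 lower, and 2 higher and 0 lower under loess. Ehhadh, the bifunctional enzyme of peroxisomal beta-oxidation, was 3.31-fold higher, and Decr2 1.70-fold lower. The list's median lay on the side of Abcd2 at -0.30 but was -0.02 under loess, where the lower calls were not kept. Ehhadh stood apart on the other side.

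Iron-sulfur and haem genes, 23 measured, had a median of -0.21, with 0 higher and 3 lower, and a median of -0.03 with 1 higher and 0 lower under loess. Alas1, the first enzyme of haem synthesis in liver, was 1.81-fold lower (log2 difference -0.86, and -0.57 under loess). Ribosome recycling and initiation partners, 13 measured, had a median of -0.05 that became 0.08 under loess, with Etf1, the release factor, 1.51-fold higher. The peptide loading genes, 10 measured, had 3 lower, Calr (2.36-fold), Pdia3 (1.76-fold) and Psmb10 (1.63-fold). Under loess 2 were lower, with Psmb10 at -0.46, inside 1.5-fold. Tap1, the ABC peptide pump of that complex, had 0.86 in the knockout and 0.46 in wild type (1.85-fold higher), and Tap2 differed by 0.16. Cftr, the chloride channel of the bile duct, was well above background in wild type only, at least 2.21-fold lower in the knockout.

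Of 15 measured regulators of transporter genes 1 was higher and 4 lower, with a median of -0.32. Under loess 1 was higher and 3 lower, with a median of -0.24. Srebf1, the activator of fatty acid synthesis genes, was 3.14-fold lower, Ppara 2.18-fold lower, the xenobiotic receptor Nr1i3 1.75-fold lower and Foxo1 1.59-fold lower. Foxo1 came to -0.576 under loess, just inside 1.5-fold. Srebf2, the activator of cholesterol synthesis genes, was 1.82-fold higher, at dim levels of 0.16 in the knockout and 0.09 in wild type. Nrf2 targets are enzymes induced by the factor that binds the antioxidant response element. Of 16 measured, 8 were at least 1.5-fold higher and 0 lower, with a median of 0.49. Gsta1 was 15.7-fold, Cbr3 6.43-fold, Gstm3 5.61-fold, Gsta2 4.03-fold and Nqo1 1.93-fold higher. Nfe2l2, which encodes Nrf2, had 7.39 in the knockout and 6.47 in wild type. Of the ABC genes whose windows held the core, Abcc4 differed by 1.24, Abcc2 by -0.05 and Abcc10 by 0.12.

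**Figure D4:**
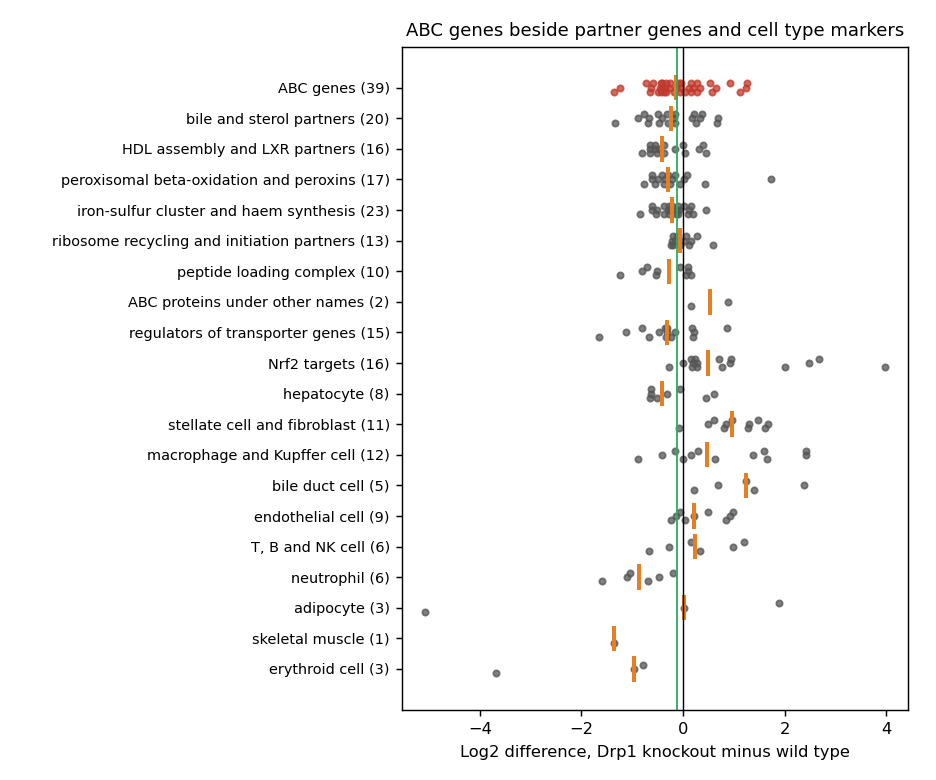
Log2 differences, Drp1 knockout minus wild type, of the measured genes in each partner and cell marker list beside the ABC genes, with 1 point per gene, an orange bar at each list's median, a green line at the median of all measured genes and the number of measured genes in brackets. The Nrf2 targets have a median of 0.49 and the stellate markers 0.97, against -0.14 for the ABC genes.

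Markers of other liver cells also differed, and in whole liver fewer cells of a type and less RNA per cell cannot be told apart. Of 11 measured stellate cell markers 9 were at least 1.5-fold higher, with summed levels of 72.9 in the knockout and 48.8 in wild type. Each sum here and below covers all genes of the list on the array, measured or not. A sum is carried by its brightest probe, here Dcn with 63.0 in the knockout and 44.6 in wild type. Of 12 macrophage markers 6 were higher and 1 lower, with sums of 61.7 in the knockout and 48.2 in wild type. Macrophages are a known site of Abcg1, which was 1.48-fold higher. Of 9 measured endothelial markers 3 were higher and 0 lower, with sums of 39.0 in the knockout and 43.9 in wild type, of which Clec4g made up 28.3 in the knockout and 31.0 in wild type. Abcb1a is known from endothelium. Bile duct markers, 5 of 10 measured, had 4 higher and sums of 1.71 in the knockout and 0.80 in wild type, with Epcam not well above background on either array.

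Erythroid markers had 3 of 3 measured lower, with sums of 67.4 in the knockout and 119.9 in wild type, beside the lower Abcb10, which red cell precursors use. Adipocyte markers had 3 of 8 measured. Of these Cfd was 33.6-fold lower and Cidec 3.70-fold higher, while Fabp4 hardly differed, with 2.45 in the knockout and 2.43 in wild type. Adipoq, Plin1, Lep and Retn were not well above background on either array. Adipose tissue is a known site of Abcd2. Skeletal muscle markers were well above background in wild type only for 8 of 10 genes, with sums of 0.33 in the knockout and 8.05 in wild type. Neutrophil markers had 4 of 6 lower and T, B and NK markers had 2 of 6 higher and 1 lower. Hepatocyte markers had 1 higher and 3 lower, and 2 higher and 0 lower under loess. The part of these cell types in the differences of Abcg1, Abcb1a, Abcb10 and Abcd2 was not tested.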

How the data were processed

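Total RNA of 1 Drp1 knockout and 1 wild type liver was converted to Cy3-labelled cRNA, per the labels' protocols, and measured on an Agilent expression array of the mouse genome. Spot intensities were deposited as scanner output of Agilent Feature Extraction, version 10.7.1.1 per the file headers and 9.5.1.1 per the submitters' processing notes. The processed signal is already background-corrected by the authors' software. The authors also deposited a value table, with a median of 45.9 for both columns. The sorted columns differ by at most 0.0417%, which is what quantile normalization gives. It follows the scanner intensities in rank (Spearman 0.99996 in the knockout and 0.9999 in wild type, across probes), and served as an alternative; its direction and centring beyond that are not stated.

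Of 44397 spots on each array 1377 were controls and were left out, as were outlier spots, 190 in the knockout and 183 in wild type; 0 were saturated. Repeated spots of 1 probe were combined as the mean of their log2 signals. The log2 of the deposited processed signal was taken relative to the array's 75th percentile over gene spots. A probe counted as measured where at least 50% of its usable spots stood well above background, and each gene's difference averages its probes that were measured on both arrays. Probe names were updated through RefSeq's table (GRCm38.p6) for 26761 probes by accession, 3814 by symbol and 645 by synonym, and 8209 kept the file's name. Promoter sequences come from RefSeq on GRCm38.p6, while probe positions are the files' mm9 coordinates.

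With 1 array per group no test could be made, and counts past 1.5-fold and 2-fold are described beside the same counts over all measured genes. Named were all ABC genes past 1.5-fold, those with a bound of at least 1.5-fold, the brightest by role, up to 5 genes past 1.5-fold in each list, and Dnm1l; others were named after their values were seen. The alternatives were quantile and loess normalization, centring on the median, normexp correction (limma 3.58.1 in R 4.3.3, offset 50), no filter and a stricter filter on dim probes, the brightest probe per gene, and the value table. The scripts were tested on simulated data. The ABC genes and lists were chosen with earlier results of these data known. Some genes are counted but not reported here by name.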

Additional observations from a re-analysis of the deposited data

How the results depend on the processing

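The 5 ABC genes at least 1.5-fold higher became 1 under normexp, 9 with no filter on dim probes and 1 under the stricter filter, which leaves out Abca5, Abcb1a, Abcc4 and Abcc5 as not measured. The 6 lower genes became 3 under centring on the median, 3 under normexp (Abca2, Abcb10 and Abcg5 being lost under both) and 12 with no filter. The ABC genes counted were 39 under centring and normexp, 50 with no filter and 31 under the stricter filter. Counts over all genes moved as well. Under centring 1717 of 15385 were higher and 1470 lower, and under normexp 688 and 1409. With no filter 3164 of 30150 were higher and 11306 lower, and under the stricter filter 655 and 1269 of 11488. At 2-fold the 3 higher genes became 1 under normexp and 1 under the stricter filter. The median of the ABC genes was -0.34 under the stricter filter, beside -0.11 for all 11488 genes kept by it. Of the 31 ABC genes kept, 22 lay below 0 and 9 above, but the median of all genes kept was itself below 0. The share of all genes kept that lay below 0 was not counted. Centring lifts every difference by 0.11, and under it the median of all measured genes is -0.00. None of the 11 genes past 1.5-fold turned sign under any of the 8 alternatives. Of these 11, 4 remained past 1.5-fold under normexp, 8 under centring, 10 each under quantile, loess, no filter and the deposited values, 11 with the brightest probe, and 7 of 7 measured under the stricter filter. Abca2 came to -0.54 and Abcb10 to -0.52 under centring. The cause of the normexp shift was not tested. No paired analysis was possible because each group has 1 array, and no replicate could be left out.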
